A study of Mus musculus with 4 samples.

Results

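Actin filaments, the myosins that pull on them and microtubules built of tubulin give a cell its shape, its adhesion and its division machinery. Actin monomers are fed to growing ends by profilin, branched by the Arp2/3 complex, severed by cofilin and gelsolin, coated by tropomyosins and bundled by alpha-actinins, while muscle cells use actin, myosin and tropomyosin isoforms of their own. Extraembryonic endoderm takes the form of migratory parietal cells or of polarised visceral cells with an absorptive apical surface, and embryonic stem cells grow as compact colonies that divide rapidly.

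The genes described here are those of the actin, myosin and tubulin cytoskeleton, chosen by their annotated symbols. The name patterns use no measured value, but the group was proposed with earlier results of these data known. They cover actins, alpha-actinins, the Arp2/3 complex and other actin-related proteins, myosin heavy and light chains, tropomyosins, calponins and transgelins, cofilins, profilins, filamins, vinculin, talin, the ezrin family, gelsolin, Capg and tubulins. The symbols were carried by 121 probe sets for 85 genes, out of 8252 genes with a probe set of 1 symbol, and each gene is represented by the probe set with the highest mean signal over the 4 arrays. The name patterns also took in Actr6, a subunit of a chromatin remodelling complex, and Tubb2a-ps2, a tubulin pseudogene, and left out Actc1, the cardiac actin. Of the 85 genes, 26 had more than 1 probe set.

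Total RNA of 4 mouse cultures was measured on 4 Affymetrix MG_U74Av2 arrays. ES stands for embryonic stem cells, here 1 culture of the R1 line kept undifferentiated with LIF on gelatin-coated dishes. XEN stands for extraembryonic endoderm, and 3 cultures made up that group: IM8A1-I and IM8A1-II, both of the IM8A1 line (PO strain) at passage 27, and XEN1-3 (ICR strain) at passage 18. IM8A1-I and XEN1-3 were grown on gelatin in 70% EMFI-CM, whereas IM8A1-II had spent 4 days in RPMI 1640 and 20% FBS on plastic. The labels state no genetic change in any culture.

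Signal is in arbitrary units, and array medians lay between 46.7 and 52.2. The background limit used here was 27.2 units, the 40th percentile of all values, and a gene was tested if at least 1 array reached it. All 8 ES cell markers fell and all 13 extraembryonic endoderm markers rose in XEN. Signal at the 3' end over that at the 5' end ran from 1.21 to 1.25 for the actin control probe sets and from 0.954 to 1.08 for those of Gapdh. The ES array came from another chip lot than the XEN arrays, and the labels give it another line and other culture conditions. The effects of lot, line, culture and cell type cannot be told apart. The run record of XEN1-3 holds a message that no fluid was detected, and the letters DIFF, unexplained in the labels, stand in that of IM8A1-II. Where leaving out 1 of these 2 arrays changed the call of a cytoskeletal gene against ES, this is stated. The comparisons between XEN cultures rest on 1 array each and have no such check. As 2 of the 3 XEN cultures are the same line, p-values measure the spread between these cultures and assume that the single ES culture varies alike. In bulk RNA, fewer cells that express a gene and less of its RNA per cell cannot be told apart.

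Promoter sequence is shown for 6 of the genes named below. Myl3, Tpm4 and Tagln2 rose in XEN, Myl9 was at least 2-fold above ES in all 3 XEN arrays, and Acta1 and Myl7 were brightest in IM8A1-II. Each run is the 250 bases before the annotated start, 5′ to 3′ on the gene's strand, from RefSeq on build GRCm38.p6. Capitals mark matches to the CArG box, the site read by serum response factor, a regulator of actin and muscle genes.
Myl3 chr9:110763428-110763677 (+): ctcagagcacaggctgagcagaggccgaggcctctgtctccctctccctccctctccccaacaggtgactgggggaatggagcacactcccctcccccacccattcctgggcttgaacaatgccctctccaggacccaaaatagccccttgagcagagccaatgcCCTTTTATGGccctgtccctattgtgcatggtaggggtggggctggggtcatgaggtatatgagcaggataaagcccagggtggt
Myl9 chr2:156775214-156775463 (+): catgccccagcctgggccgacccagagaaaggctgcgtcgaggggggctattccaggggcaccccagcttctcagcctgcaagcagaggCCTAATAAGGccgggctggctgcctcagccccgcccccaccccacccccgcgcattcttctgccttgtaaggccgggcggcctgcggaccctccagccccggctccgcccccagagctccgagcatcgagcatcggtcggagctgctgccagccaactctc
Acta1 chr8:123894776-123895025 (-): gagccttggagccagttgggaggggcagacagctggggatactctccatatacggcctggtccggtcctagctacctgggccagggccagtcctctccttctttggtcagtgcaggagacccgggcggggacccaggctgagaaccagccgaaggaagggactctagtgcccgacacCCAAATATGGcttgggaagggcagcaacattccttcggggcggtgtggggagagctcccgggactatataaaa
Myl7 chr11:5898783-5899032 (-): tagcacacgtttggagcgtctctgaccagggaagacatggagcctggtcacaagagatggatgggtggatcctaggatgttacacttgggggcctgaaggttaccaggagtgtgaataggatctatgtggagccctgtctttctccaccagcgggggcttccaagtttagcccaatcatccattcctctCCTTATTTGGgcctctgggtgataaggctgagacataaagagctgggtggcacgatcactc
Tpm4 chr8:72135038-72135287 (+): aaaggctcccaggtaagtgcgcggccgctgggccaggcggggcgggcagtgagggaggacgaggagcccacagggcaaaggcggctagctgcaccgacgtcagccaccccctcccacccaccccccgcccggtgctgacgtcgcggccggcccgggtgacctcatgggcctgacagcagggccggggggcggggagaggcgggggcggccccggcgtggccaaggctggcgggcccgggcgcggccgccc
Tagln2 chr1:172499996-172500245 (+): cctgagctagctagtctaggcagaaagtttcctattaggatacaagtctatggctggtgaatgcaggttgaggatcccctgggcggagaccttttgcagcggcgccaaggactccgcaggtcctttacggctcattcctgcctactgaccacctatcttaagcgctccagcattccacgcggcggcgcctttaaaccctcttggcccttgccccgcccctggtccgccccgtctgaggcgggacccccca

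A CArG box was present in the 250 bases before the start of 11 of the 74 genes with a promoter entry, or 14.9%, against 1.62% of the 27025 genes in the table. The motif reads the same on both strands. Myl3, Myl9, Acta1 and Myl7 hold 1 each, and the other genes are Actg1, Arpc4, Cnn2, Myh4, Myl6, Myo1e and Vcl. The windows of Tpm4 and Tagln2 hold none, and neither do those of Gsn and Myh7, which also rose and are not shown. Among the genes that rose and had a promoter entry, only Myl3 holds a box. Myo5b, which rose, and Actn3, which fell, had no entry. The letters AGATAA or their reverse complement, TTATCT, which GATA factors can bind, were in the windows of 5 of the 74 genes (6.76%) against 11.4% of all genes. These are matches of letters, not measured binding.

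Most cytoskeletal genes, like most tested probe sets, lay within 2-fold between ES and XEN cells. Of the 85 genes, 68 reached the limit on at least 1 array and were tested. In limma's test 6 rose in XEN (8.82% of the 68), 1 fell (1.47%) and 61 did not pass, against 5.52% of all tested probe sets that rose and 4.95% that fell. The share called in either direction, 10.3%, was near the background of 10.5%. The genes that rose were Myl3, Myh7, Myo5b, Gsn, Tpm4 and Tagln2, and the gene that fell was Actn3. The median difference was 0.06 in log2, compared with 0.05 for all tested probe sets. For 50 of the 68 the difference was under 2-fold, as it was for 6453 of the 8602 tested probe sets. Values of differences are on the scale of log2 of the signal plus 10.5 units, which understates changes of dim genes. At least 2-fold differences from ES in 1 direction in all 3 XEN arrays were seen for 13 genes (19.1%), 8 higher and 5 lower, where 15.8% of all tested probe sets showed them (8.11% higher and 7.72% lower). ES lay under all 3 XEN arrays for 29 genes (42.6%, against 38.9% of all tested probe sets) and above them for 20 (29.4%, against 34%). At an unadjusted limma p under 0.05, 10 were higher (14.7%, against 15.1% of all tested probe sets) and 11 lower (16.2%, against 14.5%).

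**Figure D1:**
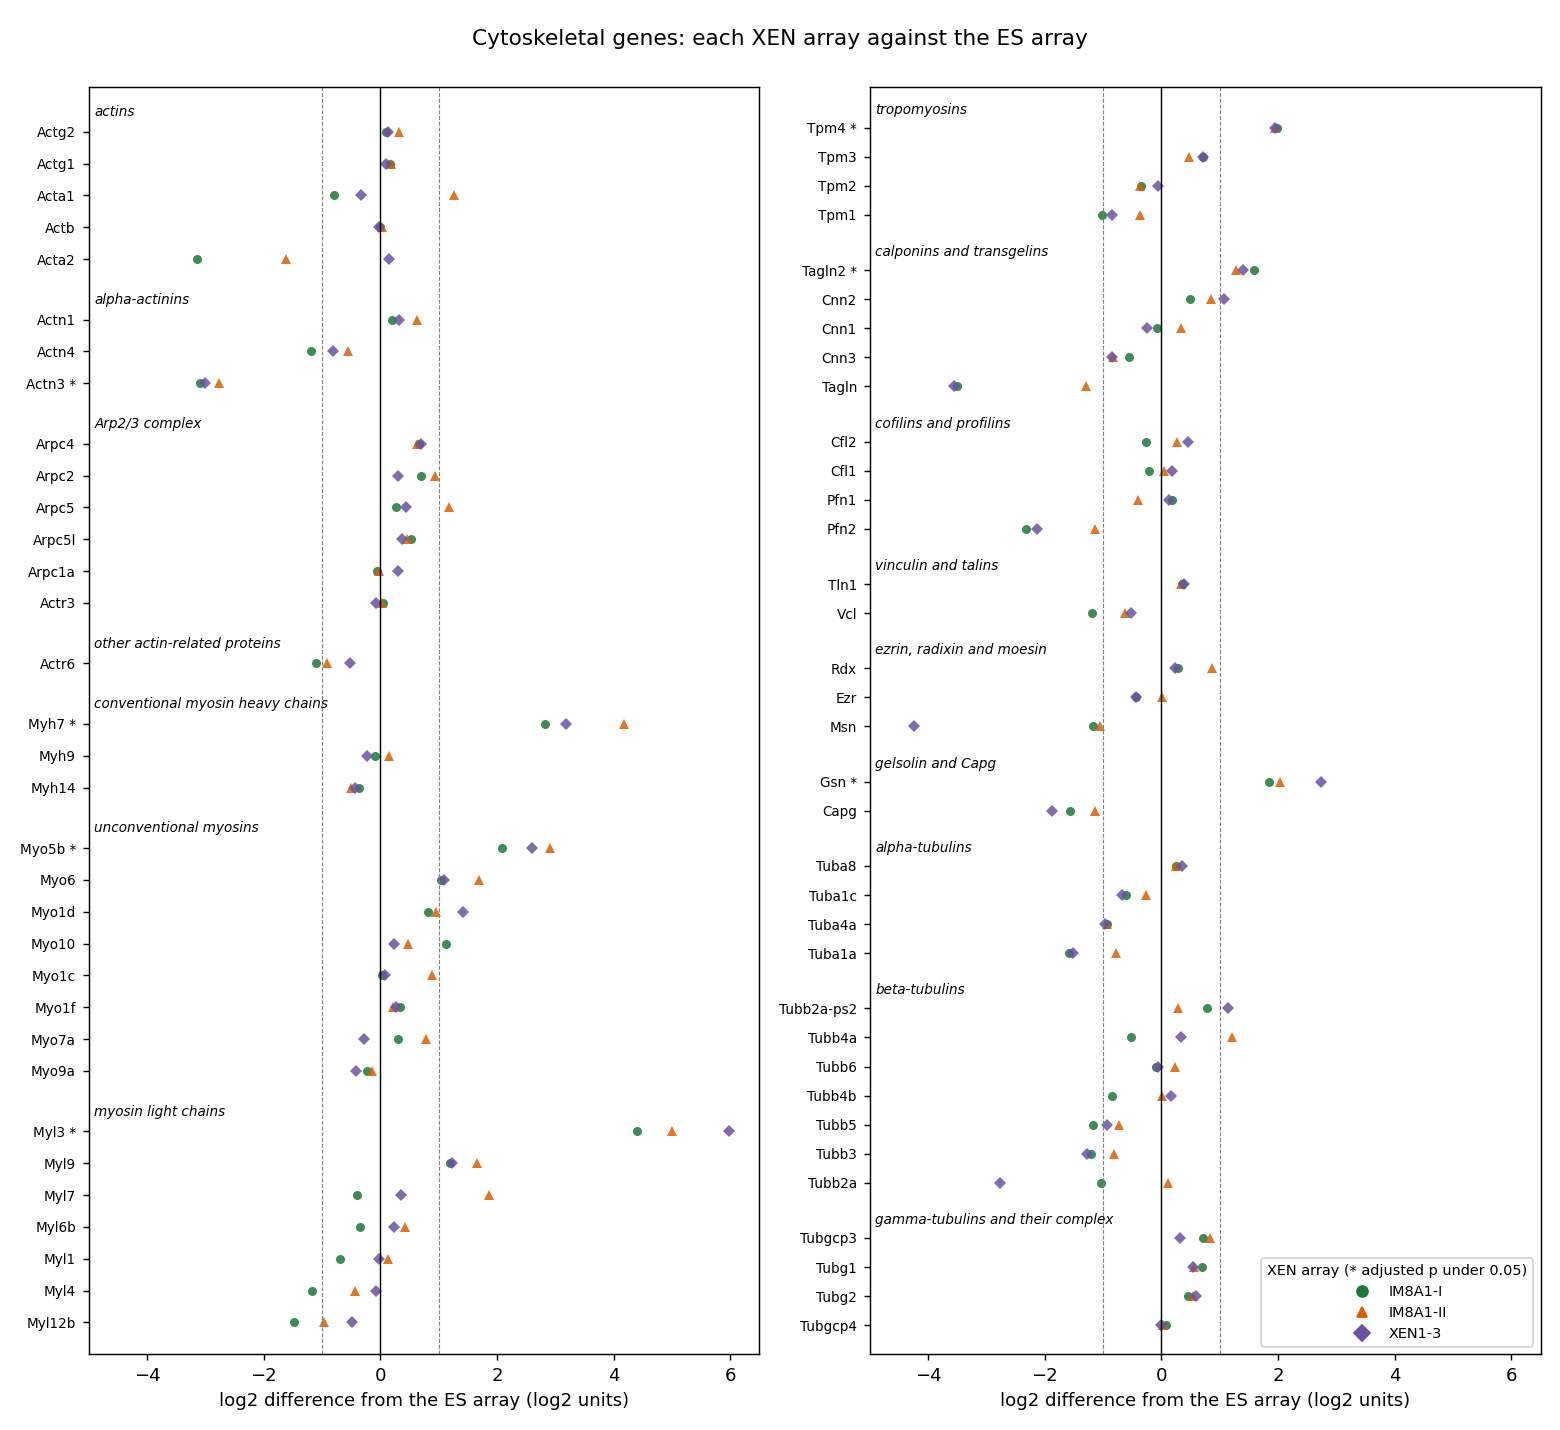
Log2 difference of each XEN array from the ES array for the 68 tested genes, grouped by role. The x axis is in log2 units, green circles are IM8A1-I, orange triangles IM8A1-II and purple diamonds XEN1-3, dashed lines mark 2-fold, and asterisks mark the 7 genes past the threshold. Most genes sit between the dashed lines, with Myl3 and Myh7 farthest to the right.

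The cytoplasmic actins did not pass the test, and the probe sets of Actb gave different values. Beta-actin (Actb), the main actin of non-muscle cells, stood at 9259.5 units on ES, 9223 on IM8A1-I, 9447 on IM8A1-II and 9105 on XEN1-3. Its partner gamma-actin (Actg1) stood at 6795 units on ES, 7632 on IM8A1-I, 7690.0 on IM8A1-II and 7287 on XEN1-3. The ES value of Actb lay inside the XEN range, and that of Actg1 lay under all 3 XEN arrays, a difference of 0.15 ± 0.20 in log2 (SE, limma adjusted p = 0.662). The Actb values come from a control probe set near the top of the scale. Further bright control probe sets of Actb, at 7286.5 and 7392.6 units in ES, differed by only 0.12 and 0.03 in log2. Both probe sets of Actb that are not controls had ES lowest. The first stood at 301 in ES and 914, 635 and 866 in the XEN arrays, a difference of 1.37 ± 0.31 (limma adjusted p = 0.05001, just over the threshold). The second stood at 397 in ES and 736, 488 and 723 in the XEN arrays, a difference of 0.67 (adjusted p = 0.245). Actb and Actg1 are close in sequence, and a probe set of one may take up RNA of the other.

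Acta2 and Acta1, both muscle actins, differed at least 2-fold between XEN cultures, and neither passed the test of XEN against ES. Smooth muscle actin (Acta2), also found in contractile fibroblasts, stood at 146 units on ES, 7.3 on IM8A1-I, 40.6 on IM8A1-II and 163 on XEN1-3. XEN1-3 was close to ES, and both IM8A1 cultures were lower. The difference of -1.54 ± 1.15 in log2 (SE, limma adjusted p = 0.419) did not pass, and without XEN1-3 it was -2.38 and passed (adjusted p = 0.0488). Skeletal muscle actin (Acta1) stood at 41.6 units on ES, 19.7 on IM8A1-I, 115 on IM8A1-II and 30.8 on XEN1-3, above the ES level in IM8A1-II only. Enteric smooth muscle actin (Actg2) was level, at 156 units on ES, 167 on IM8A1-I, 197 on IM8A1-II and 173 on XEN1-3. Its probe set is of a kind that can share probes with related genes.

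Among alpha-actinins, which cross-link actin filaments, Actn3 fell. This isoform, known from fast skeletal muscle, stood at 145 units on ES, 7.8 on IM8A1-I, 12.3 on IM8A1-II and 8.8 on XEN1-3. All 3 XEN arrays lay under the background limit, so the level was at least 5.33-fold lower in XEN. The fitted difference was -2.96 ± 0.36 in log2 (SE, limma adjusted p = 0.0106), and it was called under all 14 alternative settings. Those that changed only the choice of probe set could not alter that call. A further probe set of Actn3 was lower in XEN too, at 52.3 against 8.7, 37.1 and 26.6, without passing (adjusted p = 0.313). The non-muscle isoform Actn4 stood at 739.6 units on ES, 319 on IM8A1-I, 502 on IM8A1-II and 416 on XEN1-3 (adjusted p = 0.159). Actn1, the other non-muscle isoform, stood at 1253 units on ES, 1437 on IM8A1-I, 1949.7 on IM8A1-II and 1565 on XEN1-3, with ES the lowest array (adjusted p = 0.406). A further probe set of Actn1 gave 0.62 in log2. Another had ES inside the XEN range, at 485.6 in ES and 426.9, 634.3 and 350.5 in the XEN arrays (-0.09). Actn2, the cardiac isoform, was under the limit on all arrays.

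The Arp2/3 complex, which starts branched filaments, had 0 of 6 tested genes past the threshold in limma's test, and 1 at an unadjusted p under 0.05. That gene was Arpc4, at 466 units on ES, 746 on IM8A1-I, 727 on IM8A1-II and 764 on XEN1-3, a difference of 0.67 ± 0.25 in log2 (SE, limma adjusted p = 0.143). ES was under all 3 XEN arrays for 4 of the 6, Arpc2, Arpc4, Arpc5 and Arpc5l, as it was for 38.9% of all tested probe sets. Actr3, one of the actin-related subunits, was level at 2103 units on ES, 2168 on IM8A1-I, 2142 on IM8A1-II and 1998 on XEN1-3. The group's log2 differences ran from -0.00 to 0.67. Actr6, the chromatin subunit, stood at 167 units on ES, 72.5 on IM8A1-I, 83.7 on IM8A1-II and 114 on XEN1-3 (adjusted p = 0.159), and Actr1a, of the dynein activator dynactin, was under the limit.

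Myosin genes gave 3 of the 7 calls. They were 1 of 3 tested conventional heavy chains (33.3%), 1 of 8 unconventional myosins (12.5%) and 1 of 7 light chains (14.3%). Of all tested probe sets 10.5% were called. Myl3, the essential light chain of slow skeletal and ventricular muscle, had the largest difference of all 68 genes. It stood at 2.0 units on ES, 255 on IM8A1-I, 389 on IM8A1-II and 779 on XEN1-3, so that ES was under the limit and every XEN array was far above the limit. The level was at least 15.7-fold higher in XEN, and the fitted difference was 5.13 ± 0.60 in log2 (SE, limma adjusted p = 0.00981). XEN1-3 exceeded IM8A1-I by 1.57 in log2. Raising dim values to the limit took Myl3 out of the calls, at an adjusted p of 0.0937.

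Myh7, the slow and beta-cardiac myosin heavy chain, stood at 31.5 units on ES, 287 on IM8A1-I, 748 on IM8A1-II and 373 on XEN1-3. ES was just over the limit and IM8A1-II the brightest. The difference was 3.40 ± 0.54 in log2 (SE, limma adjusted p = 0.0208). The call of Myh7 was lost in the setting that raises dim values to the limit (adjusted p = 0.0844), although none of these values lay under it. Its probe set is of a kind that can share probes with related genes, and a further probe set of Myh7 gave no rise, at 38.6 in ES and 60.7, 41.7 and 13.5 in XEN (log2 difference -0.14, adjusted p = 0.912). Of the 11 conventional heavy chain genes, 8 did not reach the limit on any array: the other sarcomeric genes Myh1, Myh2, Myh3, Myh4, Myh6 and Myh8, smooth muscle Myh11 and the non-muscle gene Myh10. Myh9, the main non-muscle myosin II heavy chain, was level at 1455 units on ES, 1360.1 on IM8A1-I, 1620.2 on IM8A1-II and 1235 on XEN1-3. Myh14, a further non-muscle chain, stood at 191 units on ES, 146 on IM8A1-I, 132 on IM8A1-II and 139.6 on XEN1-3 (adjusted p = 0.330).

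Markers of skeletal and cardiac muscle did not rise with these 2 genes as a list. Of 18 on the array 13 were tested, and 0 passed in limma's test in either direction, against 10.5% of all tested probe sets. At an unadjusted limma p under 0.05, 2 were higher, Tnni1 and Tnnc1 (15.4%, against 15.1% of all tested probe sets), and 0 lower (against 14.5%). The median difference was 0.22, and the summed signal was 730.0 units in ES and between 746 and 1012 in XEN. Tnnc1, the slow and cardiac troponin C, stood at 2.2 units on ES, 28.7 on IM8A1-I, 179 on IM8A1-II and 70.5 on XEN1-3, under the limit in ES and just over it in IM8A1-I. Its XEN mean was at least 2.62-fold above ES, without passing (adjusted p = 0.0924). Tnnc1 was picked out after its values had been seen. Lower in XEN, without passing, were Tnni3 (-1.21 in log2), Myog (-0.72), Myoz1 (-0.45) and Des (-0.44). The other tested markers of the list were higher, without passing. The myogenic factor genes Myf5 and Myf6 were under the limit on all arrays, and Myod1 stood at 67.1 units on ES, 62.9 on IM8A1-I, 87.4 on IM8A1-II and 91.4 on XEN1-3. The part of other muscle-like cells in the result was not tested.

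Unconventional myosins carry cargo or tie membrane to actin. Myo5b, which moves recycling endosomes to the apical surface of epithelia, rose. It stood at 23 units on ES, 131 on IM8A1-I, 242 on IM8A1-II and 192 on XEN1-3, under the limit in ES and above it in every XEN array, or at least 6.72-fold higher. The fitted difference was 2.53 ± 0.39 in log2 (SE, limma adjusted p = 0.0184) and did not pass when dim values were set to at least the limit, with an adjusted p of 0.0724. A further probe set, near the limit, gave 0.35 (adjusted p = 0.667). Myo6, which moves towards the minus end of actin and serves endocytosis, stood at 89.7 units on ES, 197 on IM8A1-I, 315 on IM8A1-II and 204 on XEN1-3. It was at least 2-fold above ES in all 3 XEN arrays but the difference of 1.28 ± 0.36 in log2 (SE, limma adjusted p = 0.0780) did not pass, except without XEN1-3 (adjusted p = 0.0484). Its other probe sets gave 1.23 and 0.65, neither past the threshold. ES was under all 3 XEN arrays for 6 of 8 tested genes of this class, among them Myo1d (38.5 units on ES, 75.8 on IM8A1-I, 84.2 on IM8A1-II and 120.4 on XEN1-3) and the filopodial motor Myo10 (365 units on ES, 814 on IM8A1-I, 513 on IM8A1-II and 433 on XEN1-3), a pattern given with its background above.

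Regulatory and essential light chains other than Myl3 did not pass. Myl9, the regulatory light chain of smooth and non-muscle myosin, stood at 33.9 units on ES, 91.8 on IM8A1-I, 129 on IM8A1-II and 93.3 on XEN1-3. Each XEN array was at least 2-fold above ES, and the difference of 1.36 ± 0.32 in log2 (SE, limma adjusted p = 0.0516) fell just short. It passed without XEN1-3 (adjusted p = 0.0357) and at the 5th percentile offset (0.0483). The related Myl12b lay on the other side, at 1730.0 units on ES, 612 on IM8A1-I, 877 on IM8A1-II and 1231 on XEN1-3 (log2 difference -0.98, adjusted p = 0.186). Myl4, the atrial and embryonic essential chain, stood at 65.3 units on ES, 23.3 on IM8A1-I, 45.8 on IM8A1-II and 61.6 on XEN1-3. Myl7, the atrial regulatory chain, reached the limit in IM8A1-II alone, at 8.0 units on ES, 3.6 on IM8A1-I, 56.6 on IM8A1-II and 13.2 on XEN1-3. Myl2, Myl6 and Myl10 were under the limit on all arrays.

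Tropomyosins, which coat actin filaments, split by gene. Tpm4, a short non-muscle form, stood at 961 units on ES, 3816 on IM8A1-I, 3749 on IM8A1-II and 3759 on XEN1-3, and the 3 XEN arrays were nearly the same. It rose by 1.96 ± 0.22 in log2 (SE, limma adjusted p = 0.00919) and was called under all 14 alternative settings. Those that changed only the choice of probe set could not alter that call. A probe set annotated to both Tpm4 and Gm7809, outside the 85 genes and named after its values were seen, stood at 93.3 in ES and 540, 513 and 489 in XEN, higher by 2.34 ± 0.26 (adjusted p = 0.00899). Tpm3 stood at 142 units on ES, 239 on IM8A1-I, 201 on IM8A1-II and 238 on XEN1-3 (adjusted p = 0.192). The higher value in ES was seen for Tpm1, at 711 units on ES, 347 on IM8A1-I, 548 on IM8A1-II and 392 on XEN1-3 (adjusted p = 0.211). Tpm2 stood at 86.9 units on ES, 65.6 on IM8A1-I, 64.8 on IM8A1-II and 83.4 on XEN1-3 (adjusted p = 0.594).

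Transgelins bind actin filaments in smooth muscle (Tagln) and in many other cells (Tagln2). Tagln2 rose. It stood at 1059.6 units on ES, 3215 on IM8A1-I, 2597 on IM8A1-II and 2822 on XEN1-3, a XEN mean of 2878 ± 313 (SD, n = 3). The difference was 1.43 ± 0.25 in log2 (SE, limma adjusted p = 0.0258), and without IM8A1-I it did not pass (adjusted p = 0.0843). Tagln stood at 538 units on ES, 37.7 on IM8A1-I, 214 on IM8A1-II and 36.1 on XEN1-3, with ES highest and IM8A1-II well above the other XEN arrays. Its difference of -2.79 ± 0.92 in log2 (SE, limma adjusted p = 0.111) did not pass, and without IM8A1-II it was -3.53 and passed (adjusted p = 0.0156). The calponins, which also bind actin, did not pass. Cnn3 was at 1692 units on ES, 1149 on IM8A1-I, 952 on IM8A1-II and 933 on XEN1-3 and Cnn2, in the other direction, at 253 units on ES, 359 on IM8A1-I, 467 on IM8A1-II and 545 on XEN1-3, with adjusted p-values of 0.129 and 0.169. Cnn1, the smooth muscle form, was near the limit, and Tagln3, known from neurons, was under it.

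Tagln, Acta2, Cnn1 and Actg2 are also on the list of smooth muscle markers, of which 9 were on the array and 7 tested. None of the 7 passed limma's test, against 10.5% of all tested probe sets, with a median of 0.00 in log2. At an unadjusted limma p under 0.05, 1 was higher (14.3%, against 15.1% of all tested probe sets) and 1 lower (14.3%, against 14.5%). The summed signal was 984 units in ES and 368, 620 and 613 in the XEN arrays in the order used above, and the defining gene Myh11 was under the limit throughout. Tagln and Acta2, at 538 and 146 units in ES, are part of this sum and make up most of it in ES. The sum is therefore no separate measure beside these 2 genes. Of 16 fibroblast and feeder cell markers 10 were tested, 0 rose and 1 fell, Thy1 (10%, against 4.95% of all tested probe sets). Their sum was 712 units in ES and between 740 and 845 in XEN. The part of such cells in the Tagln and Acta2 values was not tested.

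**Figure D2:**
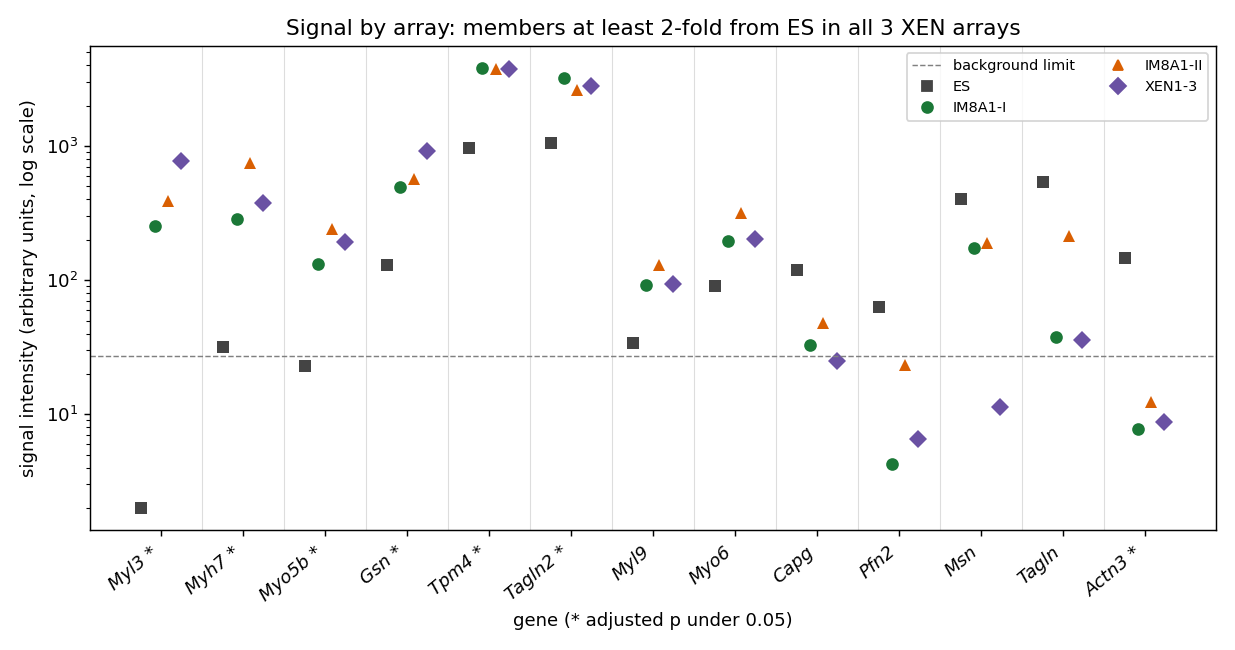
Signal of the 13 genes that lay at least 2-fold from ES in 1 direction in all 3 XEN arrays, on a log axis in arbitrary units, with 1 point per array (black squares ES, green circles IM8A1-I, orange triangles IM8A1-II, purple diamonds XEN1-3). The dashed line marks 27.2 units, the limit for background. The XEN arrays of Tpm4 lie between 3749 and 3816 units, those of Msn run from 11.4 to 189, and all XEN arrays of Actn3 are under the limit.

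Of the severing and capping proteins Gsn and Capg, the first passed the test. Gelsolin (Gsn), which severs filaments and caps their ends when calcium rises, stood at 129.9 units on ES, 497 on IM8A1-I, 564 on IM8A1-II and 922 on XEN1-3, and every XEN array was above ES. It rose by 2.21 ± 0.41 in log2 (SE, limma adjusted p = 0.0297). The call was lost without IM8A1-I (adjusted p = 0.0523), without IM8A1-II (0.0631) and in the setting that raises dim values to the limit (0.0943). No Gsn value lay under the limit, but that setting also drops the offset and refits the spread over all probe sets. Capg, a capping protein of the same family that does not sever, stood at 119 units on ES, 33.1 on IM8A1-I, 48.1 on IM8A1-II and 25 on XEN1-3. All XEN arrays lay at least 2-fold under ES, but the difference of -1.52 ± 0.38 in log2 (SE, limma adjusted p = 0.0600) did not pass, although it did without XEN1-3 (0.0443), with median scaling (0.0465) and at the 50th percentile offset (0.0444).

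Cofilin 1 (Cfl1), the main severing factor of growing networks, was level at 2599 units on ES, 2256 on IM8A1-I, 2689 on IM8A1-II and 2937 on XEN1-3. The muscle-type Cfl2 stood at 105 units on ES, 85.9 on IM8A1-I, 129 on IM8A1-II and 148 on XEN1-3. Profilin 1 (Pfn1) was level too, at 105 units on ES, 121 on IM8A1-I, 77.4 on IM8A1-II and 116 on XEN1-3. Profilin 2 (Pfn2), the form most abundant in brain, stood at 63.5 units on ES, 4.3 on IM8A1-I, 23.2 on IM8A1-II and 6.5 on XEN1-3. All 3 XEN arrays were under the limit, at least 2.33-fold below ES. The fitted difference of -1.86 ± 0.57 in log2 (SE, limma adjusted p = 0.0926) did not pass, and with values raised to the limit it was -1.22 and passed (adjusted p = 0.00229).

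The ezrin, radixin and moesin proteins link filaments to the plasma membrane. Moesin (Msn) stood at 402 units on ES, 173 on IM8A1-I, 189 on IM8A1-II and 11.4 on XEN1-3, so the IM8A1 cultures were at least 2-fold under ES and XEN1-3 was under the limit. The difference of -2.15 ± 1.26 in log2 (SE, limma adjusted p = 0.309) did not pass over the 3 arrays, and for the IM8A1 cultures alone it was -1.11 and passed (adjusted p = 0.0452). Radixin (Rdx) stood at 596 units on ES, 731 on IM8A1-I, 1092 on IM8A1-II and 707 on XEN1-3 and ezrin (Ezr) at 546 units on ES, 400.3 on IM8A1-I, 553 on IM8A1-II and 403 on XEN1-3, without passing (adjusted p of 0.406 and 0.582). Ezr in ES lay inside the XEN range. At focal adhesions, vinculin (Vcl) stood at 705 units on ES, 304 on IM8A1-I, 456 on IM8A1-II and 491 on XEN1-3 and talin 1 (Tln1) at 811 units on ES, 1039 on IM8A1-I, 1031 on IM8A1-II and 1064 on XEN1-3. Vcl was highest in ES and Tln1 lowest, and neither passed (adjusted p of 0.210 and 0.369). A further, dimmer probe set of Vcl had ES inside the XEN range, at 33.8 in ES and 29, 39.3 and 45.3 in the XEN arrays (log2 difference 0.11). Filamin A (Flna) was under the limit on all arrays, at 3.4 units or less.

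Several alpha- and beta-tubulins were highest in ES without passing the test. In limma's test 0 of 11 passed, and 4 (36.4%) were lower at an unadjusted p under 0.05, where 14.5% of all tested probe sets were. Tuba1a, abundant in dividing and neural cells, stood at 5119.9 units on ES, 1709 on IM8A1-I, 2988 on IM8A1-II and 1791 on XEN1-3. IM8A1-II was the XEN array nearest to ES. The difference was -1.29 ± 0.38 in log2 (SE, limma adjusted p = 0.0857), and without IM8A1-II it passed as lower. Its second probe set gave -1.56 (adjusted p = 0.0793). Tubb5, the beta-tubulin of most dividing cells, stood at 5448 units on ES, 2415 on IM8A1-I, 3291 on IM8A1-II and 2856 on XEN1-3, and both of its probe sets were lower, by -0.94 and -0.97 (adjusted p of 0.0794 and 0.0641). Tuba4a stood at 151 units on ES, 74.5 on IM8A1-I, 74.0 on IM8A1-II and 71.9 on XEN1-3, with the XEN arrays close together (log2 difference -0.94, adjusted p = 0.0785).

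Tubb3, the beta-tubulin used as a marker of neurons, stood at 1532 units on ES, 658 on IM8A1-I, 869 on IM8A1-II and 624 on XEN1-3 (log2 difference -1.10, adjusted p = 0.0739), and a further probe set showed no such difference (-0.12). Of 13 neuron markers 6 were tested, and 2 fell, Stmn2 and Mapt (33.3%, against 4.95% of all tested probe sets). The list summed to 2246 units in ES and between 805 and 1031 in XEN. Tubb3 is itself on this list and makes up most of the sum on every array. The part of neurons in the Tubb3 values was not tested. Tuba1c stood at 7637 units on ES, 4993 on IM8A1-I, 6339 on IM8A1-II and 4784 on XEN1-3 and Tubb6 at 1288 units on ES, 1208 on IM8A1-I, 1520.4 on IM8A1-II and 1235 on XEN1-3, the latter with ES inside the XEN range. Tubb2a differed more than 2-fold between XEN cultures, at 483 units on ES, 230.2 on IM8A1-I, 524 on IM8A1-II and 62.5 on XEN1-3. A further probe set of Tubb2a had the other sign (0.72). Tubulin genes are close in sequence, and the probe sets of Tuba1a, Tuba1c, Tubb2a, Tubb3, Tubb5 and Tubb6 are of kinds that can share probes with related genes, so the split between them is uncertain.

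The genes of gamma-tubulin, which starts microtubules at centrosomes, lay the other way. Tubg1 stood at 232 units on ES, 382 on IM8A1-I, 347 on IM8A1-II and 343 on XEN1-3, Tubg2 at 42.9 units on ES, 62.8 on IM8A1-I, 66.9 on IM8A1-II and 70.5 on XEN1-3 and Tubgcp3, a ring complex subunit, at 77.2 units on ES, 134 on IM8A1-I, 146 on IM8A1-II and 99.1 on XEN1-3. ES was lowest for all 4 genes of this group, as it was for 38.9% of all tested probe sets. For Tubgcp4 it was lowest by little, at 129 units against 129.2 on XEN1-3. None of the 4 passed limma's test (0 also at an unadjusted p under 0.05). The log2 differences ran from 0.04 to 0.63.

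**Figure D3:**
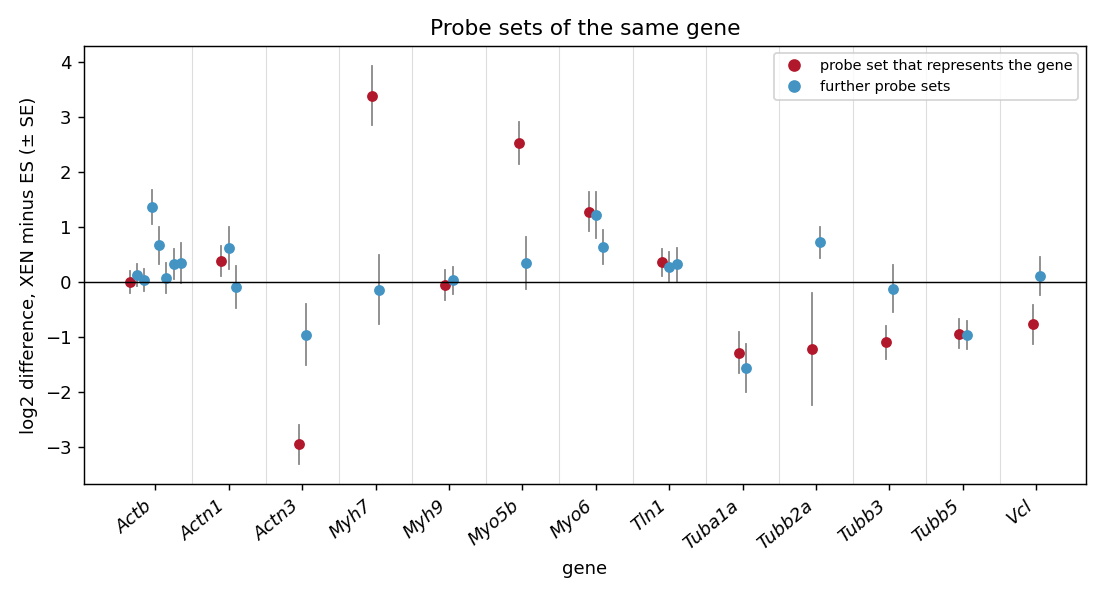
Log2 difference of XEN from ES with its SE for the 13 genes with more than 1 tested probe set. Red points are the probe sets that represent the gene and blue points the further ones. The probe sets of Tubb5, Tln1 and Myh9 lie together, while those of Myh7 are 3.53 apart and those of Myo5b 2.18.

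Other genes that act on the 2 filament systems, from lists chosen with earlier results of these data known, had 7.27% (actin regulators) and 5.66% (microtubule proteins) of their tested genes called, beside 10.5% of all tested probe sets. Of 63 actin regulators on the array 55 were tested, 2 rose (3.64%, against 5.52% of all tested probe sets) and 2 fell (3.64%, against 4.95%), with a median of 0.03. Pdlim1, a scaffold that binds alpha-actinin, stood at 399 units on ES, 1504 on IM8A1-I, 1706 on IM8A1-II and 1220.4 on XEN1-3 and rose by 1.85 ± 0.29 in log2 (SE, limma adjusted p = 0.0204). Lcp1, an actin bundler of blood cells, rose to at least 2.57-fold the level in ES, at 15.1 in ES and 70.5 ± 11.4 in XEN (SD, n = 3, log2 difference 1.65, adjusted p = 0.0322). Coro1a, an actin-binding coronin of blood cells, went the other way, at 76.2 in ES and 10 ± 1.7 in XEN, at least 2.8-fold lower (-2.08, adjusted p = 0.0261). The monomer-binding twinfilin Twf2 fell, at 614 in ES and 223 ± 14.9 in XEN (-1.42, adjusted p = 0.0303).

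All 4 of these calls were lost without IM8A1-I, with adjusted p from 0.0656 to 0.0918. Lcp1, Coro1a and Twf2 were lost without IM8A1-II too (0.0853, 0.0640 and 0.0814). The setting that raises dim values to the limit also ended the calls of Lcp1 (0.0805) and Pdlim1 (0.0545), though no Pdlim1 value lay under it. Testing without a filter ended that of Lcp1 (0.0649), and counting each XEN line once that of Twf2 (0.0635). Lcp1 and Coro1a are also on the leukocyte marker list, where 6 genes were tested. These 2 passed (33.3%, against 10.5% of all tested probe sets), in opposite directions. The list summed to 366 units in ES and between 391 and 608 in XEN, and the defining gene Ptprc was at 1.6 to 2.1 units on every array.

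Of 59 microtubule proteins 53 were tested, 0 rose and 3 fell (5.66%, against 4.95% of all tested probe sets), with a median of -0.23. At an unadjusted limma p under 0.05, 5 were higher (9.43%, against 15.1%) and 11 lower (20.8%, against 14.5%). Stmn1 and Stmn2 encode stathmins, which bind tubulin dimers and promote disassembly. Stmn1 stood at 3560.1 units on ES, 426 on IM8A1-I, 637 on IM8A1-II and 379 on XEN1-3, a difference of -2.90 ± 0.36 in log2 (SE, limma adjusted p = 0.0111). Stmn2 stood at 400.0 units on ES, 51.9 on IM8A1-I, 59.1 on IM8A1-II and 48.4 on XEN1-3, a difference of -2.69 ± 0.28 in log2 (SE, limma adjusted p = 0.00738). Mapt, the microtubule-binding protein tau, stood at 112 units on ES, 21.1 on IM8A1-I, 9.9 on IM8A1-II and 10.6 on XEN1-3, at least 4.13-fold lower (log2 difference -2.36, adjusted p = 0.0252) and was not called without IM8A1-II (0.0593). Stmn1 was lost in the setting that raises dim values to the limit (0.0539), though none of its values lay under it.

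The IM8A1 line was measured on gelatin in 70% EMFI-CM and on plastic in RPMI 1640 with FBS, with 1 array each and therefore no test. Medium and surface changed together, so their effects cannot be told apart. Between these arrays 8 of the 68 genes (11.8%) differed at least 2-fold, all 8 of them higher in IM8A1-II. Of all tested probe sets 5.99% did so (3.5% higher and 2.49% lower). Both values reached the limit for 3 of them, Tagln (2.22 in log2), Myh7 (1.35) and Tubb2a (1.15), and the further probe set of Myh7 had the other sign (-0.45). The other genes have only a bound, since IM8A1-I was under the limit. Acta1 was at least 4.21-fold higher in IM8A1-II, Tubb4a at least 3.8-fold, Myl7 at least 2.08-fold and Acta2 at least 1.49-fold. Pfn2 was under the limit in both arrays and has no fold. Tubb4a stood at 38.8 units on ES, 23.7 on IM8A1-I, 103 on IM8A1-II and 51.6 on XEN1-3. The median over the 68 genes was 0.34, compared with 0.01 over all tested probe sets. The count was 6 when dim values were raised to the limit, where Acta2 and Pfn2 were no longer 2-fold apart (0.58 and 0), and 5 at the 50th percentile offset.

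Between XEN1-3 and IM8A1-I, which differ in line, strain and passage but not in medium, 6 of the 68 genes (8.82%) were at least 2-fold apart, against 9.1% of all tested probe sets. Of these 4 were higher in XEN1-3, compared with 4.57% of all tested probe sets, and 2 lower, compared with 4.53%. Both values reached the limit for Myl3 (1.57 in log2) and Tubb2a (-1.72). IM8A1-I was under the limit for Acta2, which was at least 6-fold higher in XEN1-3, Myl4, at least 2.26-fold higher, and Tubb4b, at least 2.12-fold higher. XEN1-3 was under the limit for Msn, which was at least 6.35-fold lower there. Tubb4b stood at 50.2 units on ES, 23.2 on IM8A1-I, 50.6 on IM8A1-II and 57.6 on XEN1-3 and was just under 2-fold with median scaling (0.99). The median over the genes was 0.05.

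**Figure D4:**
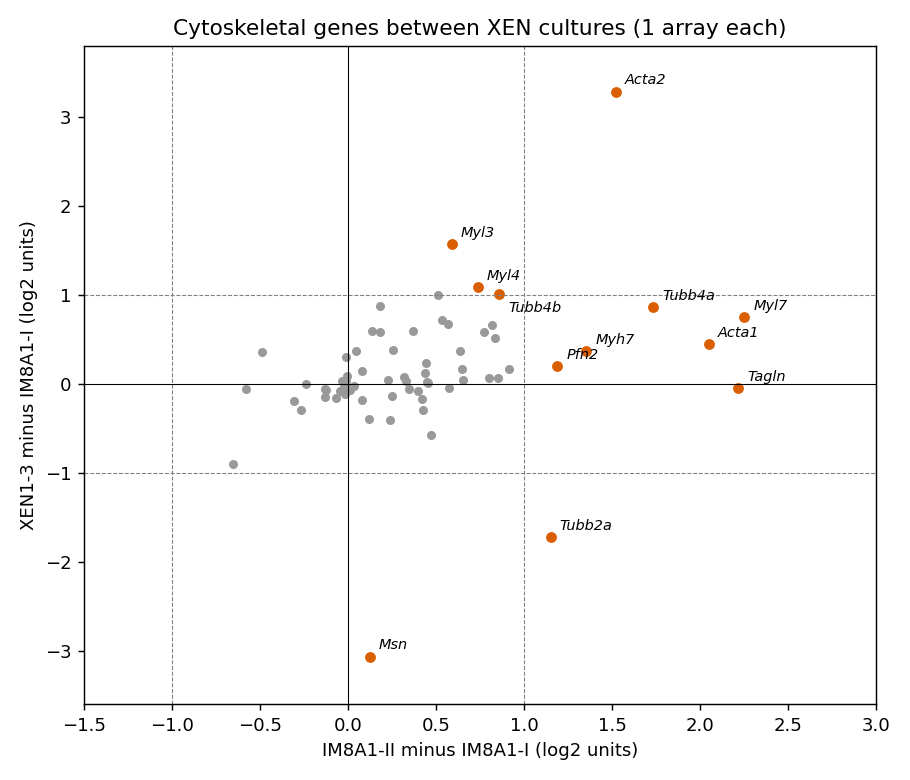
Differences between XEN cultures for the 68 tested genes, with IM8A1-II minus IM8A1-I on the x axis and XEN1-3 minus IM8A1-I on the y axis, both in log2 units and with 1 array each. Both axes share IM8A1-I, so a low value there moves a gene up and to the right. Orange points are named and lie at least 2-fold apart in at least 1 comparison. Values under the limit are plotted as deposited, so the positions of Acta1, Acta2, Msn, Myl4, Myl7, Pfn2, Tubb4a and Tubb4b rest on signal within background, with Msn lowest and Acta2 highest on the y axis.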

How the data were processed

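The authors deposited linear intensity values for 12488 probe sets on each array, by software that the sources used here do not give. Their 2% trimmed means ran from 150.088 to 150.095, a common scale. Chip type, chip lot and the fluidics message are run record text, per the file headers (other instrument fields were not used). Gene symbols are those of the platform annotation, and all 85 genes were found in the RefSeq table of GRCm38.p6. Control probe sets were left out except 22 with a mouse gene symbol. For 14 genes the representing probe set is of a kind that can share probes with related genes. Beside Myh7 and the 6 tubulins named above, these are Actg2, Actn1, Cnn1, Cnn3, Myh9, Myo6 and Tubg2.

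The test of XEN against ES used limma 3.58.1 under R 4.3.3 (lmFit, then eBayes with trend, residual degrees of freedom 2) on log2 of the value plus 10.5 units (the 25th percentile of all values) over 8602 probe sets, two-sided, with Benjamini-Hochberg adjustment over all of them and a threshold of 0.05. "At least N-fold" sets the brighter group's geometric mean against the limit. The script was tested on simulated data. Genes were named if past the threshold, at least 2-fold from ES in all 3 XEN arrays, at least 2-fold apart between XEN cultures, or brightest of their role group. Further genes given as examples of a role were chosen after their values were seen. Pathway genes were named if past the threshold. The genes and lists were chosen with earlier results of these data known. Alternatives changed the offset, filter, scaling, floor, variance trend, arrays and representing probe set. Raising values to the limit replaced the offset and refitted the spread over all probe sets, so calls of genes without dim values could change too. Promoter windows are those of RefSeq. Figures were drawn with matplotlib 3.10.9.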

Additional observations from a re-analysis of the deposited data

How the results depend on the processing

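Over 14 alternatives Tpm4 and Actn3 were called each time, Myl3, Myh7, Myo5b and Tagln2 in 13 and Gsn in 11. The alternatives that changed only the choice of probe set reuse the main fit and could not change these calls. Leaving out 1 XEN array gave 4 to 8 genes higher and 1 to 4 lower. With values raised to the background limit 2 were higher (Tpm4 and Tagln2) and 2 lower (Actn3 and Pfn2). The count of lower genes was 2, not 1, also with an offset of the 50th percentile, median scaling, no filter and each XEN line counted once. The genes added were Capg, Capg, Tagln3 and Tagln. With an offset of the 50th percentile 5 genes, not 8, were 2-fold apart between the IM8A1 cultures. Some differences that had not passed changed sign, among them Myl7 (0.61) and Tubb4a (0.34) without 1 XEN array. Acta1 gave -0.0014 with an offset of the 5th percentile, -0.042 with median scaling, -0.022 with quantile normalization and -0.049 with each line counted once. Quantile normalization gave 0.28 for Actb and 0.045 for Actr3, median scaling -0.10 for Cfl1, and leaving out control probe sets, an alternative added after seeing the data, 1.37 for Actb. Leaving out 1 XEN array gave -0.56 to 0.46 for Acta1, -0.015 to 0.012 for Actb, -0.024 to 0.035 for Actr3, -0.077 to 0.11 for Cfl1, -0.17 to 0.028 for Myh9, -0.017 to 1.11 for Myl7, -0.10 to 0.77 for Tubb4a and -0.42 to 0.088 for Tubb4b. The cause was not tested. No paired analysis was possible, since there was only 1 ES culture and the labels state no pairing. Signal near the limit restricts what can be said of the 17 genes that were not tested.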

Other observations

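Further probe sets carried several symbols of which 1 or more belong to these families, and apart from that of Tpm4 or Gm7809 they were not used above. A probe set of Tuba3a or Tuba3b stood at 339 units on ES, 124 on IM8A1-I, 181 on IM8A1-II and 147 on XEN1-3, and a dimmer one at 35.7 and 10.6, 13.7 and 4.7, without passing limma's test (adjusted p of 0.0758 and 0.140). A probe set shared by Tuba1a, Tuba1b, Tuba1c and Gm5620 stood at 8241 in ES and 6290.4, 6675 and 5972 in XEN (adjusted p = 0.277). The regulatory light chain probe set of Myl12a or Myl12b stood at 1730.4 in ES and 883, 1509 and 1387 in XEN (adjusted p = 0.415). A probe set of Arpc1b or Gm5637, of the Arp2/3 complex, was level, at 192 in ES and 144, 243 and 195 in XEN, and another was under the background limit on all arrays.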
